A study of Mus musculus with 6 samples.

Results

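The genes described here encode regulators of messenger RNA decay: the AU-rich element binding proteins of the Zfp36 family (Zfp36, Zfp36l1, Zfp36l2), the Regnase ribonucleases (Zc3h12a, Zc3h12d), the Roquin proteins (Rc3h1, Rc3h2), the deadenylation adaptors Btg1 and Btg2, and Pnrc1, which binds decapping factors. They are 10 of the 18193 genes that the array measured with a probe set annotated to exactly 1 gene. They were taken by name, with earlier results of these data known. Every probe set annotated to one of them alone was used, which gave 25 of 34945 probe sets: 7 for Rc3h2, 3 each for Zfp36l2, Btg1 and Pnrc1, 2 each for Zfp36l1, Zc3h12a and Btg2, and 1 each for Zfp36, Zc3h12d and Rc3h1.

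The RNA came from memory phenotype CD4+ T cells of female C57BL/6 mice aged 8 to 10 weeks with MOG35-55-induced EAE (experimental autoimmune encephalomyelitis, a model in which T cells attack myelin) in its acute clinical stage. One group of 3 arrays held those of the spinal cord, where the disease acts, and the other group of 3 arrays held T cells from the draining (inguinal) lymph node. All 6 arrays came from mice with disease, so no healthy tissue enters any comparison. The labels give neither the number of animals behind an array nor the markers that defined the memory phenotype, so a p-value here covers only array-to-array spread, which may be technical.

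These proteins shorten the life of transcripts that encode cytokines, costimulatory receptors and transcription factors. Zfp36 proteins bind AU-rich elements and recruit the CCR4-NOT deadenylase, Roquin proteins bind stem-loops and recruit the same complex, and Regnase proteins cut stem-loops as endonucleases. In T cells the paracaspase Malt1 cleaves Regnase and Roquin proteins after antigen receptor signalling, and Zfp36, Btg2 and Zc3h12a are themselves known as genes induced quickly by stimulation. Btg1 and Btg2 are known for keeping resting T cells quiescent through deadenylation.

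The label of the cells was checked first. Cd4 read 6371, 4101 and 2763 in spinal cord arrays 1, 2 and 3, against 7669, 2063 and 2823 in lymph node arrays 1, 2 and 3, and Cd3e read 2153, 1358 and 1679 in spinal cord arrays, against 2124, 1248 and 1405 in lymph node. Of 7 measured T cell genes, 0 were called by limma (0 at an unadjusted p below 0.05) and their median log2 change was 0.00. The 13 macrophage, monocyte and microglia genes summed to 1308, 5548 and 2993 in spinal cord, against 629, 664 and 736 in lymph node. All 13 had positive log2 changes (median 1.74), and 11 of them separated the tissues with spinal cord higher, where 8.81% of all genes did. Limma called 0 of the 13 (11 at an unadjusted p below 0.05), and 5 with the array number as a block, all higher, where 3.13% of all genes were called higher. Csf1r, the receptor gene that defines this lineage, read 237, 1486 and 754 in spinal cord, against 99, 57 and 98 in lymph node. Itgam, an integrin gene of the same cells, was at or under an intensity of 27, the 20th percentile, on every array. The 7 neutrophil genes summed to 423, 1904 and 688 in spinal cord, against 463, 326 and 355 in lymph node. The 6 B cell genes summed to 310 to 346 in spinal cord, against 927 to 967 in lymph node, but Cd22 alone made up most of that gap, at 98 to 116 in spinal cord against 620 to 750 in lymph node. Cd79b was also lower in spinal cord on every array, and Cd79a, Ms4a1, Blk and Pax5 overlapped between the tissues. Because each array is a bulk sample, fewer cells of a type and less RNA per cell cannot be told apart. The ratio of the signal at the 3′ end of actin to that at its 5′ end, which rises as RNA is degraded or shortened in amplification, was 3.72, 4.93 and 2.47 in spinal cord, against 2.07, 11.3 and 1.76 in lymph node.

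In the spinal cord T cells the regulators did not all lie on one side of their lymph node levels: Zc3h12a, Btg2, Zfp36, Zfp36l2 and Pnrc1 had higher mean intensity there, the Roquin genes and Zc3h12d had lower means, and Zfp36l1 and the brightest Btg1 probe set differed little. None of these differences passed limma's test over all probe sets. Of the 25 probe sets, 0 were called at a Benjamini-Hochberg adjusted p below 0.05, where 1.49% of all probe sets were (0.701% higher and 0.784% lower), and 8 had an unadjusted p below 0.05. Those 8 were 6 that were higher (24.0% of the 25, against 5.31% of all probe sets) and 2 that were lower (8.0%, against 7.45%). The 3 arrays of one tissue all lay above the 3 of the other for 7 probe sets higher in spinal cord (28.0%, against 8.39% of all) and 2 lower (8.0%, against 8.45%). Probe sets of 1 gene read the same transcript, so these 25 are not independent. The genes were also chosen with earlier results of these data known, so the shares are descriptions only. Over the probe set with the highest mean of each gene, the median log2 change was 0.37, beside 0.00 over all 18193 genes. Of those 10 probe sets, 4 separated the tissues with spinal cord higher (8.81% of all genes did) and 1 with spinal cord lower (9.68%).

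**Figure D1:**
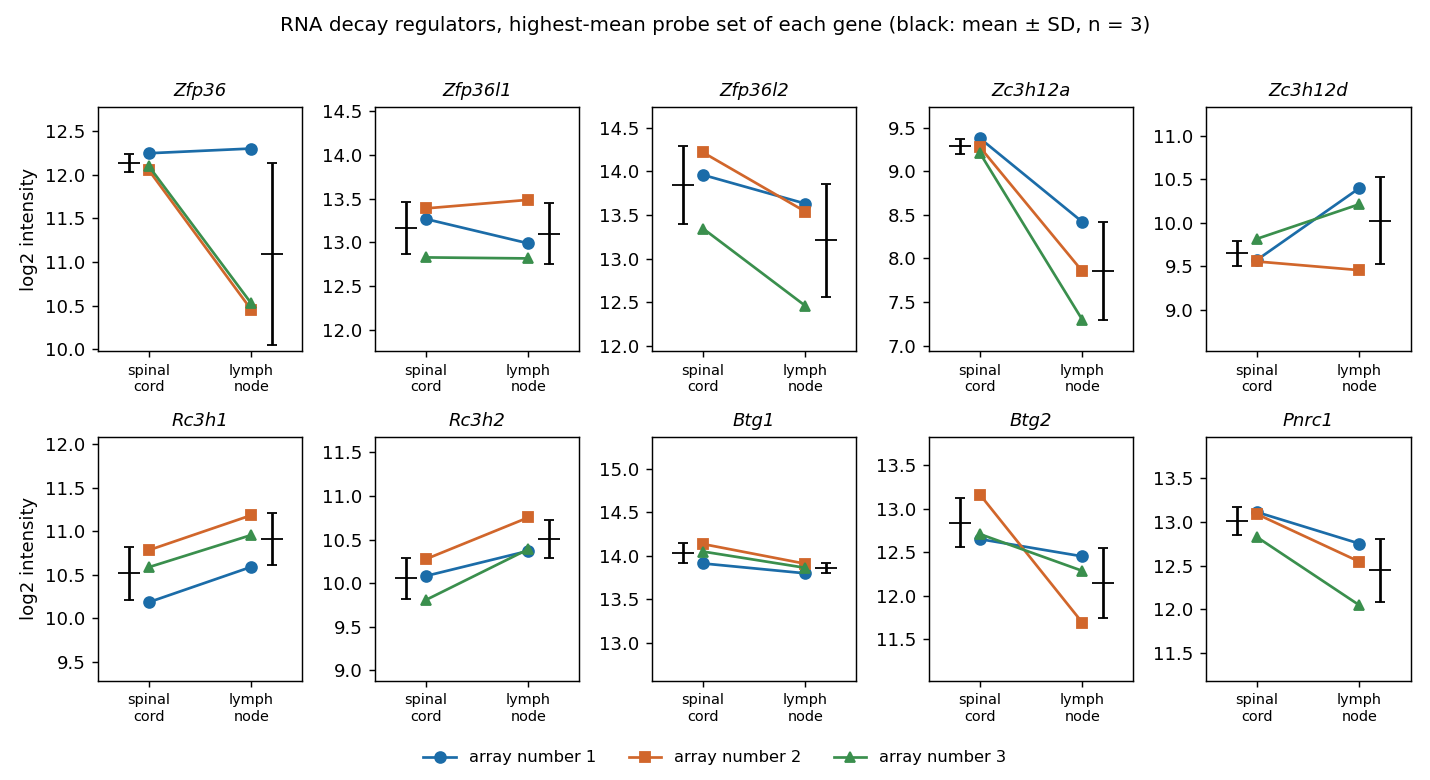
Log2 intensity of the 10 regulator genes (probe set with the highest mean of each gene) in spinal cord and lymph node T cells; points are arrays, lines join arrays of the same number and black bars give the mean ± SD (n = 3 each). All panels span the same range of log2 units. The Zc3h12a, Btg1, Btg2 and Pnrc1 points of the spinal cord lie above all lymph node points, the Rc3h2 points lie below them, and lymph node array 1 of Zfp36 lies level with the spinal cord arrays.

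Titles of the samples carry a number from 1 to 3 in each tissue, and arrays of the same number deviated from their tissue means together. With that number as a block in the fit, which compares spinal cord with lymph node within each number, 7.65% of all probe sets were called, and 3 of the 25 probe sets were among them, all higher in spinal cord, where 2.94% of all probe sets were called higher and 4.71% lower. They were 1 probe set each of Zc3h12a, Btg1 and Btg2. The blocked fit has few residual degrees of freedom, and with both arrays of any 1 number left out it called 0 of 34945 probe sets.

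Zc3h12a encodes Regnase-1, the endonuclease known to restrain T cell activation by cutting transcripts such as Il2, Icos and Rel. Its brighter probe set read 664, 619 and 590 in spinal cord arrays 1, 2 and 3, against 342, 231 and 157 in lymph node arrays 1, 2 and 3. The spinal cord arrays agreed closely and every one of them exceeded every lymph node array. The gene was 2.69-fold higher in spinal cord (log2 change 1.43 ± 0.28 SE, 95% interval 0.74 to 2.12; limma adjusted p = 0.0891 over all probe sets). Blocking on the array number gave an adjusted p of 0.0216, and the spinal cord to lymph node ratio was 1.94, 2.68 and 3.76 within numbers 1, 2 and 3. The second probe set read 129, 99 and 146 in spinal cord, against 83, 84 and 80 in lymph node, a 1.5-fold difference with adjusted p = 0.207. When each array was left out in turn, the log2 change of the brighter probe set stayed between 1.15 and 1.71, and its limma adjusted p between 0.0509 and 0.274. Macrophage genes, which summed to 1308, 5548 and 2993 in spinal cord against 629, 664 and 736 in lymph node, had higher sums in the same tissue, and their part in the Zc3h12a values was not tested.

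The promoter of Zc3h12a is shown because this gene had the largest log2 change of the 10 by their highest-mean probe sets. RefSeq places it at chr4:125127832-125128131 on the minus strand of GRCm38.p6, and the sequence runs 5′ to 3′ from 250 bases before the transcript start to 50 bases after it. All letters are in lower case because none of the searched motifs named further on was found.
Zc3h12a promoter: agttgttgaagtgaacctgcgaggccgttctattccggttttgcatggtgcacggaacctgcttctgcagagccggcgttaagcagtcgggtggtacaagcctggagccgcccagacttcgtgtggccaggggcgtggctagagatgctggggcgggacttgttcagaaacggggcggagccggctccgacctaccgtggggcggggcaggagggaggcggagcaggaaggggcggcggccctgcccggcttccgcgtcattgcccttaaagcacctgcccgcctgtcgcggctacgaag

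Zc3h12d encodes Regnase-4, a related ribonuclease of lymphocytes. Its single probe set read 763, 753 and 902 in spinal cord, against 1349, 703 and 1187 in lymph node. Lymph node array 2 lay below all spinal cord arrays, so the groups overlapped, and the log2 change was -0.37 ± 0.26 SE (95% interval -1.01 to 0.26, limma adjusted p = 0.664). With quantile normalization the log2 change was -0.23. On each array the log2 ratio of Zc3h12a to Zc3h12d was -0.20, -0.28 and -0.61 in spinal cord, against -1.98, -1.61 and -2.92 in lymph node. The mean ratio was higher in spinal cord by 1.80 ± 0.41 (SE) on the log2 scale, with tissue groups that did not overlap. By an exact permutation test, two-sided, p was 0.1, the smallest that 3 against 3 arrays allow, and 0.3 after adjustment over the 6 pairs of family members compared. Within array numbers 1, 2 and 3 the difference was 1.78, 1.32 and 2.31. With the second Zc3h12a probe set the mean difference was 0.95.

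Zfp36 encodes tristetraprolin, which binds AU-rich elements in transcripts such as Tnf and Csf2. It read 4859, 4237 and 4377 in spinal cord arrays 1, 2 and 3, against 5044, 1401 and 1473 in lymph node arrays 1, 2 and 3. The spinal cord arrays lay close together, while lymph node array 1 was the highest of all 6 and the other lymph node arrays were low. The mean log2 change was 1.04 ± 0.50 SE (95% interval -0.19 to 2.27, limma adjusted p = 0.486), and the ratio within array numbers 1, 2 and 3 was 0.963, 3.02 and 2.97. Without lymph node array 1 the log2 change was 1.64 and limma's adjusted p was 0.0269, in a fit that called 0.761% of all probe sets (0.332% higher). With each of the other arrays left out in turn the adjusted p lay between 0.642 and 0.825.

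Lymph node array 1 was the highest of its tissue for 10 of the 12 immediate early and heat shock genes measured, all but Atf3 and Dnajb1, where it was for 40.3% of all genes. The immediate early transcription factor gene Junb read 3518, 1740 and 1233 in spinal cord, against 1692, 377 and 209 in lymph node. Jun, another AP-1 transcription factor gene, read 4707, 4138 and 2822 in spinal cord, against 1968, 473 and 297 in lymph node. Both were picked with their values in view. The 12 immediate early and heat shock genes together summed to 116089, 98142 and 75242 in spinal cord, against 45060, 29913 and 20299 in lymph node. Lymph node array 1 thus held the highest sum of its tissue and stayed under every spinal cord sum. Single genes varied. For Junb and Fos (13203 against 8841) lymph node array 1 lay above spinal cord array 3, and for Zfp36 above every spinal cord array. Of the 12 genes, 9 separated the tissues with spinal cord higher, where 8.81% of all genes did. Of these 12 genes 4 were higher in spinal cord by limma (Hspa1a, Hspa1b, Nr4a1 and Atf3, at 79.0-, 30.5-, 7.08- and 11.6-fold), where 0.83% of all genes were, and the list median was 2.24. With single arrays left out, Hspa1a was called in 6 of 6 fits, Hspa1b in 4, and Nr4a1 and Atf3 in 1 each (highest adjusted p 0.166 and 0.159). The part of this shared signal, of tissue handling or of macrophage RNA in the Zfp36 values was not tested.

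**Figure D2:**
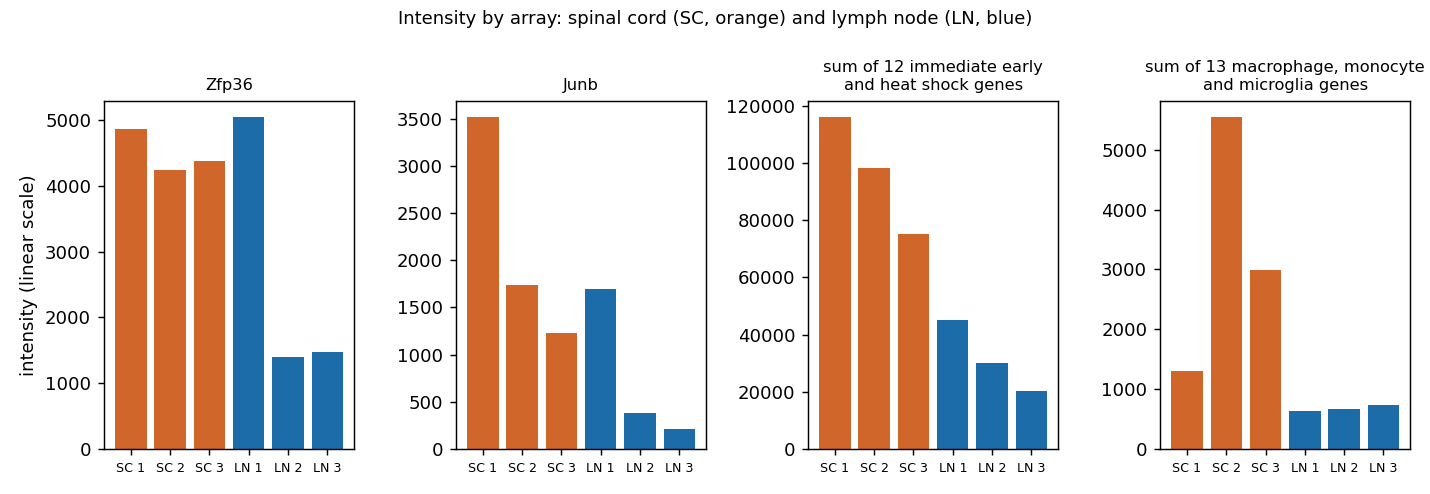
Intensity on a linear scale for each spinal cord (SC, orange) and lymph node (LN, blue) array, for Zfp36, Junb, the sum of 12 immediate early and heat shock genes, and the sum of 13 macrophage, monocyte and microglia genes. LN 1 has the highest lymph node bar for Zfp36 (5044), Junb (1692) and the immediate early sum (45060), while SC 2 has the highest macrophage sum (5548).

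The Zfp36 promoter is shown because the gene is known as a rapidly induced one. It lies at chr7:28379179-28379478 on the minus strand of GRCm38.p6 in RefSeq, in the same window as above, and the capitals mark a CArG box, the binding sequence of serum response factor, from 58 to 49 bases before the start.
Zfp36 promoter: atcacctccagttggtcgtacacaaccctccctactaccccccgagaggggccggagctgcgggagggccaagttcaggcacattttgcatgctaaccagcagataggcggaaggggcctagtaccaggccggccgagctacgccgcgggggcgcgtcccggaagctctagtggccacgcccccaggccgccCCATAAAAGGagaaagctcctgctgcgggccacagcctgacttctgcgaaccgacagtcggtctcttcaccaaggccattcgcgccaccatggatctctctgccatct

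Zfp36l1 and Zfp36l2, the other members of the family, are known for restraining lymphocyte proliferation. The brighter Zfp36l1 probe set read 9855, 10726 and 7264 in spinal cord, against 8123, 11479 and 7206 in lymph node, so the groups overlapped fully. Its log2 change was 0.06 ± 0.23 SE (95% interval -0.51 to 0.64, limma adjusted p = 0.951). The second Zfp36l1 probe set, at 159 to 173 in spinal cord against 100 to 175 in lymph node, had a log2 change of 0.41 ± 0.23. Like Zfp36, it was high in lymph node array 1 (175) and lower in arrays 2 and 3 (100 and 107). Zfp36l2 read 15920, 19032 and 10394 in spinal cord, against 12670, 11895 and 5625 in lymph node. Array 3 was the lowest in each tissue, and the ratio within numbers was 1.26, 1.60 and 1.85. Its log2 change was 0.63 ± 0.38 SE (limma adjusted p = 0.596), with an adjusted p of 0.0659 under the block. A dimmer Zfp36l2 probe set, at 224, 308 and 245 in spinal cord against 177, 201 and 197 in lymph node, separated the tissues (log2 change 0.42 ± 0.15, adjusted p = 0.322), and the third did not.

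Within the family, the ratio of Zfp36 to Zfp36l1 was 0.97 ± 0.71 (SE) higher in spinal cord on the log2 scale, and the ratio of Zfp36 to Zfp36l2 was 0.41 ± 0.58 higher. The exact two-sided permutation p was 0.4 and 0.6 (0.6 and 0.72 adjusted over the 6 pairs). For Zfp36l1 over Zfp36l2 the difference was -0.57 ± 0.30, with exact permutation p = 0.2 and 0.4 adjusted. The tissue groups overlapped for all 3 ratios. This test does not use the array numbers. Within numbers 1, 2 and 3 the difference was -0.33, 1.69 and 1.56 for Zfp36 over Zfp36l1, -0.38, 0.92 and 0.69 for Zfp36 over Zfp36l2, and -0.05, -0.78 and -0.87 for Zfp36l1 over Zfp36l2. The last was lower in spinal cord in each number, with number 1 close to 0.

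Rc3h1 and Rc3h2 encode Roquin-1 and Roquin-2, which are known for repressing Icos and Tnfrsf4 and so limiting follicular helper T cells. Rc3h1 read 1165, 1762 and 1539 in spinal cord, against 1542, 2325 and 1986 in lymph node. The tissue ranges overlapped, but the lymph node array was the higher in each number, with ratios of 0.756, 0.758 and 0.775. The log2 change was -0.39 ± 0.22 SE (95% interval -0.93 to 0.15, limma adjusted p = 0.567), and with the block its SE was 0.10 and its adjusted p 0.0886. The brightest Rc3h2 probe set read 1085, 1241 and 897 in spinal cord, against 1324, 1727 and 1342 in lymph node. All spinal cord values lay under all lymph node values, with ratios of 0.819, 0.719 and 0.668 within numbers. Its log2 change was -0.45 ± 0.18 SE (limma adjusted p = 0.371, and 0.0857 with the block). Quantile normalization made both changes smaller, at -0.27 for Rc3h1 and -0.31 for this Rc3h2 probe set.

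The 7 Rc3h2 probe sets did not all point the same way: 5 had lower and 2 had higher means in spinal cord. Of the 7, 4 lay above the 40th percentile of mean log2 intensity over all probe sets, and 3 of those 4 had lower means. The ratio of Rc3h1 to Rc3h2 differed between tissues by 0.06 ± 0.22 (SE) on the log2 scale, with exact permutation p = 0.9 before and after adjustment. Its values on the arrays were 0.10, 0.51 and 0.78 in spinal cord, against 0.22, 0.43 and 0.57 in lymph node, so the groups overlapped, and the difference within numbers was -0.12, 0.08 and 0.21. With the second Rc3h2 probe set in place of the first the difference was -0.26.

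Btg2, also an early response gene, encodes an antiproliferative protein that recruits the CCR4-NOT deadenylase. Its brighter probe set read 6425, 9145 and 6685 in spinal cord, against 5604, 3309 and 4993 in lymph node. Its other probe set read 3123, 3667 and 4354 in spinal cord, against 1443, 1689 and 2432 in lymph node. Both separated the tissues, although the arrays were ordered differently within them. The brighter was 1.62-fold higher (log2 change 0.69 ± 0.25 SE, limma adjusted p = 0.315) and the other 2.03-fold (1.02 ± 0.23, 95% interval 0.45 to 1.59, limma adjusted p = 0.125). With the block the adjusted p was 0.197 and 0.013. Ratios within numbers were 1.15, 2.76 and 1.34 for the brighter and 2.16, 2.17 and 1.79 for the other. With single arrays left out, the log2 change of the brighter lay between 0.47 (without lymph node array 2) and 0.85. That of the other lay between 0.86 and 1.24. Lymph node array 2 also had the highest actin ratio (11.3), and its part in these values was not tested.

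The Btg2 promoter is shown because it held the cyclic AMP response element. RefSeq places it at chr1:134079106-134079405 on the minus strand of GRCm38.p6, and the capitals mark TGACGTCA, from 166 to 159 bases before the start.
Btg2 promoter: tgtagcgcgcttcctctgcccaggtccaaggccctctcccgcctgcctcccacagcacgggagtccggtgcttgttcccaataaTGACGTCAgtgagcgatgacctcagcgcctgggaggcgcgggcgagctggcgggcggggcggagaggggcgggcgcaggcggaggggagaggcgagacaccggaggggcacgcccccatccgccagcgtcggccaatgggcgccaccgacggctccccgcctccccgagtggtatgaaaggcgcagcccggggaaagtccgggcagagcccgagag

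The promoter windows of 9 of the 10 genes were in the RefSeq table (not Zfp36l2) and were searched on both strands for 4 motifs. The CArG box was found in Zfp36 alone of the 9 and in 1.63% of all 32851 promoter windows of the same length. TGACGTCA was found in Btg2 alone and in 1.79% of all windows. The AP-1 site TGANTCA was found in Rc3h1 and Zfp36l1 and in 7.81% of windows, and the kappa B site in 0 of the 9 and in 8.46% of windows. These are matches of letters in a short window and do not show binding.

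Btg1, the paralog of Btg2 with the same adaptor role, gave different answers by probe set. The brightest read 15418, 17987 and 16945 in spinal cord, against 14255, 15382 and 14893 in lymph node. These groups lay close together without overlapping, for a log2 change of 0.18 ± 0.11 SE (95% interval -0.09 to 0.44, limma adjusted p = 0.614). The second read 11564, 12269 and 8536 in spinal cord, against 9456, 13257 and 10592 in lymph node, which overlapped (log2 change -0.04 ± 0.20). The third read 10722, 9727 and 4476 in spinal cord, against 4337, 5636 and 1755 in lymph node. Number 3 was the lowest in each tissue there, and the ratio within numbers was 2.47, 1.73 and 2.55. The third probe set had a log2 change of 1.15 ± 0.53 SE (limma adjusted p = 0.463), and the adjusted p was 0.0189 with the block. Which transcript ends these probe sets detect was not tested. By the brightest probe sets the log2 ratio of Btg1 to Btg2 was 1.26, 0.98 and 1.34 in spinal cord arrays, against 1.35, 2.22 and 1.58 in lymph node. The groups did not overlap but almost met, at 1.34 and 1.35, and lymph node array 2 lay furthest off. The mean ratio was lower in spinal cord, with a difference of -0.52 ± 0.28 (SE; exact permutation p = 0.1, and 0.3 adjusted over the 6 pairs). Within numbers 1, 2 and 3 that difference was -0.08, -1.24 and -0.23. The direction depends on the Btg1 probe set. The third one's log2 change of 1.15 exceeds the 0.69 of the brightest Btg2 probe set, so with it the mean ratio is higher in spinal cord.

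Pnrc1, a nuclear receptor coactivator that also binds decapping factors, read 8852, 8712 and 7255 in spinal cord, against 6894, 5971 and 4225 in lymph node. Every spinal cord value lay above every lymph node value, with ratios of 1.28, 1.46 and 1.72 within numbers. It was 1.48-fold higher (log2 change 0.56 ± 0.21 SE, limma adjusted p = 0.336, and 0.0643 with the block). Its other probe sets read 24 to 31 and 11 to 13 over all arrays, near the low end of the scale, and gave log2 changes of 0.09 and 0.00.

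**Figure D3:**
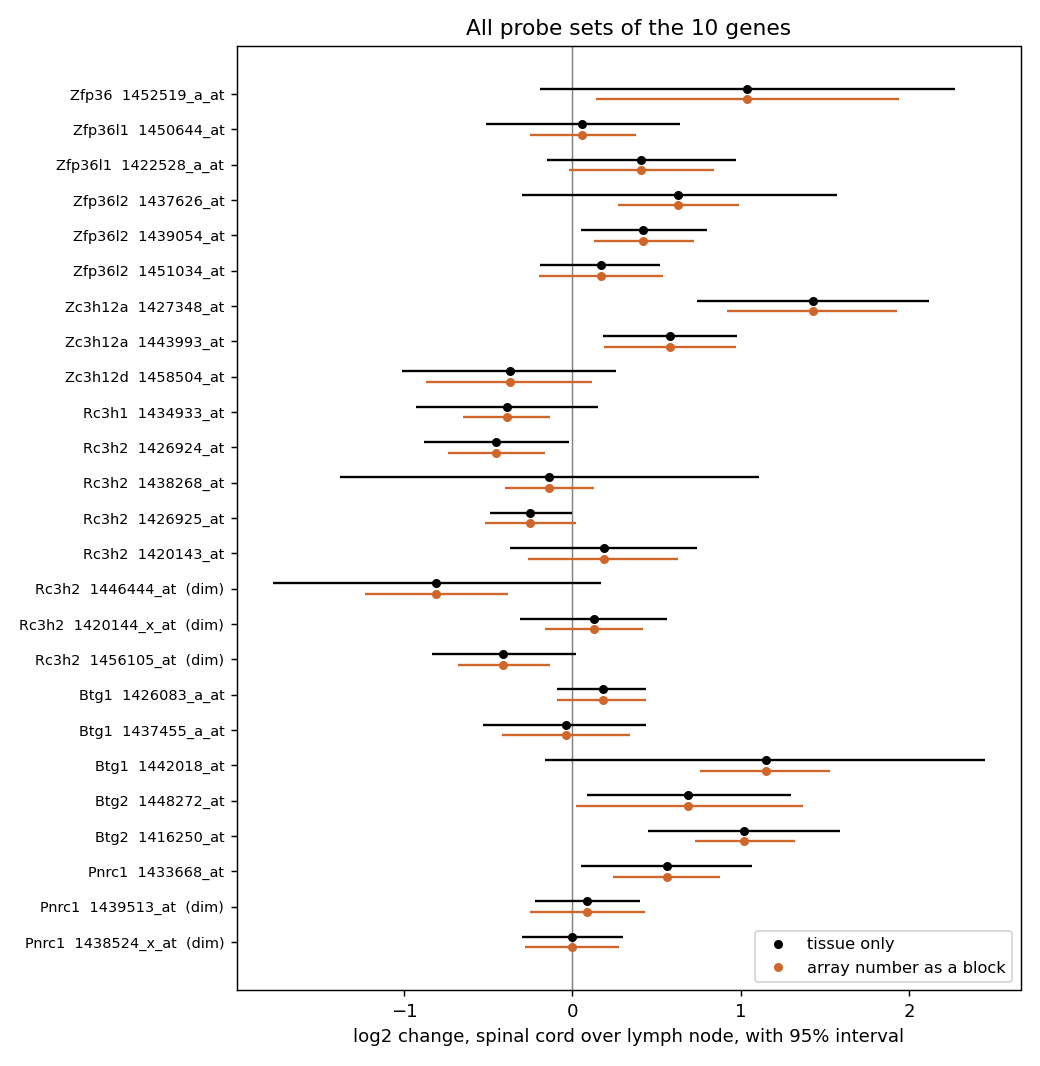
Log2 change, spinal cord over lymph node, of all 25 probe sets of the 10 genes, with the 95% interval from limma with tissue as the only term (black) and with the array number as a block (orange); probe sets under the 40th percentile of mean intensity are marked dim. The Zc3h12a, Zfp36l2 and Btg2 probe sets all lie right of 0, while those of Rc3h2 lie on both sides.

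The partners, other family members and upstream regulators of these genes held 1 call. Of 17 measured, Zc3h12c, which encodes Regnase-3, a relative known chiefly from macrophages, was higher in spinal cord, and 0 were lower, where 0.83% of genes were called higher and 1.05% lower. Zc3h12c read 69, 156 and 129 in spinal cord, against 22, 27 and 26 in lymph node. Limma's adjusted p was 0.0371 on the values as deposited. The lymph node mean lay below a floor of 27, the intensity that 20% of all values do not exceed, and against that floor the gene was at least 4.13-fold higher. With all values raised to the floor its adjusted p was 0.127, and with a pseudocount of 16 it was 0.0723, so the call was lost in both, and the filter on dim probe sets left the gene out. Spinal cord array 2, its highest, also had the highest macrophage sum (5548, beside 1308 and 2993), and the part of macrophage RNA in this value was not tested. Its call held in 1 of the 6 fits that left out an array (highest adjusted p 0.152). With the block 3 of the 17 were called higher and 0 lower, where 3.13% and 5.73% of all genes were. They were Zc3h12c, N4bp1 and Mapkapk2. N4bp1 encodes a Regnase-related ribonuclease (log2 change 0.80 ± 0.20, adjusted p = 0.0213 with the block). Mapkapk2 encodes the kinase that phosphorylates and inactivates the Zfp36 protein (1.16 ± 0.26, adjusted p = 0.0277 with the block). Malt1, the protease that cleaves Regnase-1 and Roquin proteins, had a log2 change of 0.44 ± 0.53. The naming rule did not select N4bp1, Mapkapk2 or Malt1, which were chosen with their values known. The median log2 change of the 17 was 0.02.

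The general decay machinery had mostly lower means in spinal cord. This list held subunits of CCR4-NOT and PAN, the adaptors Tob1 and Tob2, decapping factors, the exosome, the SKI complex and nonsense-mediated decay factors. Of 48 measured genes 41 had negative log2 changes, where 49.3% of all genes did, and the median was -0.28. Of the 48, 47 lay above the 40th percentile of mean log2 intensity. The 49.3% covers genes of all intensities, so it is not the share among equally bright genes. By limma 0 were called (6 at an unadjusted p below 0.05), and with the block 2 were lower and 0 higher, where 5.73% and 3.13% of genes were. The 2 were Dcp2, the decapping enzyme, at 1223, 1539 and 1800 in spinal cord against 2070, 3205 and 4022 in lymph node (log2 change -0.99 ± 0.28, adjusted p = 0.205, and 0.017 with the block), and Exosc1, an exosome subunit (-0.61 ± 0.12, adjusted p = 0.0816, and 0.0366 with the block). Dcp2 was lower in spinal cord in each number. Tob2, an antiproliferative relative of Btg1 and Btg2, went the other way, at 3668, 5724 and 4494 in spinal cord against 2500, 3426 and 1769 in lymph node (0.88 ± 0.29, adjusted p = 0.266). Its paralog Tob1, named with its value known, also had a higher mean in spinal cord, with groups that overlapped (0.62 ± 0.28, limma adjusted p = 0.438). In all, 7 of the 48 had positive log2 changes. The SKI complex subunit gene Ttc37 had a log2 change of -0.49 ± 0.19. The count and median of this list were taken on the values as deposited. Quantile normalization shifted the log2 change upward for Dcp2 (-0.87), Exosc1 (-0.47), Ttc37 (-0.34) and Tob2 (0.99). The size of the list's shift thus depends on the scaling, and whether the count of 41 does was not tested.

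Transcripts known as targets of these regulators mostly had higher means in spinal cord. Of 29 measured genes 6 were called higher and 1 lower (Il21, a helper T cell cytokine gene) by limma, where 0.83% and 1.05% of all genes were. In addition, 27 had positive log2 changes, where 50.7% of all genes did, and the median was 1.11. Only 22 of the 29 lay above the 40th percentile of mean log2 intensity, so some of these changes were among dim genes. Cxcl2, a chemokine gene among the 6, read 20, 21 and 18 in lymph node, under the floor of 27. Fos was in this list and in the immediate early list. With the block 11 of the 29 were called higher and 1 lower, where 3.13% and 5.73% of all genes were. By the naming rule the genes called higher include Csf2 (18.5-fold), Ifng (34.6-fold), Il17a (20.8-fold) and Il2ra (4.50-fold). They are cytokine and cytokine receptor genes whose limma adjusted p was 0.00741, 0.0106, 0.0299 and 0.0212. With single arrays left out, Csf2 was called in 5 of 6 fits, Ifng in 4, and Il17a and Il2ra in 2 each. The count of target genes called higher fell to 0 when lymph node array 2 was left out and to 1 when spinal cord array 2 was. It was 3 when spinal cord array 3, or either of the other lymph node arrays, was left out, 3 with the pseudocount and 1 with the floor. The call of Il21 was lost under quantile normalization, the pseudocount and the floor, and held in 1 of 6 fits without an array. The 12 immediate early and heat shock genes (median 2.24) and the macrophage genes (median 1.74) had positive medians in the same comparison, and their part in this was not tested.

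Values of 7 single genes from the target list follow, which are known targets of Roquin or Regnase proteins. Nfkbiz, an inhibitor-like NF-kappa B cofactor, read 8026, 11911 and 9520 in spinal cord, against 2635, 3983 and 2034 in lymph node (3.49-fold, limma adjusted p = 0.0472), and its call held in 0 of 6 fits without an array (highest adjusted p 0.171). Nfkbid, which encodes a related nuclear inhibitor of NF-kappa B, read 6448, 5035 and 3898 in spinal cord, against 2871, 1488 and 1045 in lymph node (3.05-fold, limma adjusted p = 0.152, and 0.0114 with the block). Both genes separated the tissues. The NF-kappa B subunit gene Rel had a log2 change of 1.16 ± 0.34 (limma adjusted p = 0.224), and Irf4, a transcription factor gene of activated T cells, had one of 0.63 ± 0.23 (limma adjusted p = 0.323). Ctla4, an inhibitory receptor gene, read 12504, 10569 and 12119 in spinal cord, against 5551, 2593 and 4803 in lymph node (log2 change 1.51 ± 0.30, limma adjusted p = 0.0857, and 0.0173 with the block). Icos, the costimulatory receptor gene by which Roquin repression is best known, read 19329, 18654 and 17637 in spinal cord, against 18603, 18210 and 18148 in lymph node. Its log2 change was 0.02 ± 0.10 SE (95% interval -0.23 to 0.26), at intensities near the top of an array whose highest value was 39505. Tnfrsf4, which encodes OX40, had a log2 change of 0.30 ± 0.35 (95% interval -0.56 to 1.17). These 7, and Il21 and Cxcl2, were also chosen with their values known.

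**Figure D4:**
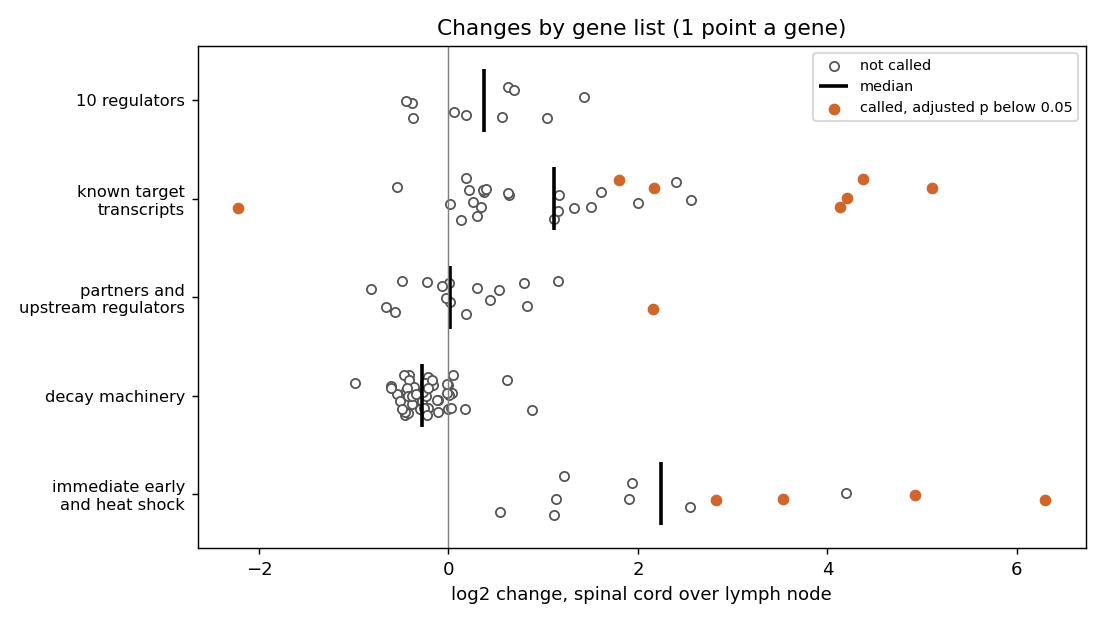
Log2 change, spinal cord over lymph node, of each gene (its highest-mean probe set) in 5 lists, with the list median as a black line and genes called by limma at an adjusted p below 0.05 filled orange. The medians are 0.37 for the 10 regulators, 1.11 for known target transcripts, 0.02 for partners and upstream regulators, -0.28 for decay machinery and 2.24 for immediate early and heat shock genes.

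The genes whose log2 values ran most like those of 4 regulators over the 6 arrays were sought among 12028 genes above the 40th percentile. The closest to Zc3h12a was Mafk, a small Maf transcription factor gene (Pearson r = 0.995), at 1191, 1034 and 1039 in spinal cord against 711, 526 and 439 in lymph node, followed by Cdr2 (0.993) and Nkain1 (0.991). The closest to Zfp36 were Tlcd1, Tnk1 and Lalba (0.994, 0.992 and 0.990), all at intensities of 63 to 116. Hsdl2, Pnpla8 and Taok1 ran closest to Rc3h1 (0.995, 0.992 and 0.992), and Fahd2a, Arap2 and Neurl3 closest to Btg1 (0.986, 0.983 and 0.980). With 6 arrays in 2 tissues that share the same array numbers, 28 to 73 genes reached r over 0.95 for each regulator, so these are descriptions only.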

How the data were processed

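Arrays of T cells from the spinal cord (3) and the lymph node (3) were compared. Per the submitters' processing notes the authors made the values with RMA, with no version stated there, and per the labels' protocols the target was amplified in 2 cycles from 1 ng of total RNA. The deposited intensity values were whole numbers on a linear scale (9 to 39505), so log2 was taken first. The number of arrays limits the precision. No arrays were duplicates: any 2 had different values in 93.5% of probe sets or more.

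Gene names came from the platform annotation: 34945 probe sets had 1 gene, 932 several and 9160 none, and 64 controls were left out. Where 1 probe set a gene was needed, the one with the highest mean log2 value was taken. Limma 3.58.1 in R 4.3.3 (lmFit, eBayes) was fitted to all 34945 on tissue alone, with two-sided p-values adjusted by Benjamini-Hochberg. The fit was tested on simulated data. Ratios of family members were compared with exact permutation tests. Python 3.11.15 with pandas 2.3.3, scipy 1.17.1 and matplotlib 3.10.9 served for the rest.

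Deviations from tissue means correlated at 0.59, 0.549 and 0.772 for same-numbered arrays of both tissues and at -0.544 to -0.0459 for other pairs, over probe sets, which are not independent. Deviations from a mean of 3 arrays sum to 0, so the negative correlations partly follow from the positive ones. From these values, not from the labels, same-numbered arrays were treated as pairs in the block and in the values within numbers. The main fit and the permutation tests did not use the numbers. The naming rule took all 10 genes, at most 4 called genes from a list in order of adjusted p (the lowest p if a list had no call), and the 3 genes most like Zfp36, Zc3h12a, Rc3h1 and Btg1. The members and lists were chosen with earlier results of these data known. Lists were described by counts and medians, without a list test. Of the CD8 and NK, dendritic, and glia and neuron lists, none of the 5, 4 and 7 measured genes were called by limma (1, 0 and 0 at an unadjusted p below 0.05). With the block, 1 of the 5 CD8 and NK genes was called higher and 1 lower, where 3.13% and 5.73% of all genes were. Nkg7 read 3992, 4244 and 7910 in spinal cord, against 436, 798 and 2196 in lymph node (limma adjusted p = 0.011 with the block). Eomes read 52, 93 and 306 in spinal cord, against 113, 406 and 1185 in lymph node (0.0169). Both were named because the block called them.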

Additional observations from a re-analysis of the deposited data

How the results depend on the processing

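No probe set of the 10 genes was called by limma, with 8 of 25 at an unadjusted p below 0.05, and the count of calls became 3 with the replicate block and 0 to 1 when single arrays were left out. All other alternatives from the list (median centring, quantile normalization, a filter on dim probe sets, a pseudocount of 16, a floor at an intensity of 27, another variance model, array weights, 1 probe set a gene and a threshold of 0.01) left it at 0. Over all probe sets, 245 were called higher and 274 lower. These counts were 1027 and 1645 with the replicate block, 71 and 65 with the floor, 39 and 22 at 0.01, and 28 to 145 and 11 to 150 without single arrays. In an alternative chosen after seeing the data, the block without both arrays of one number called 0 and 0, with 4408 to 8351 probe sets, and 8 to 12 of the 25, at an unadjusted p below 0.05. The cause was not tested.

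Some log2 changes near 0, and some ratios of family members, changed direction. Among alternatives other than leaving out arrays, a second Rc3h2 probe set gave 0.06 with array weights, the second Btg1 probe set gave 0.06 with quantile normalization, and the ratio of Rc3h1 to Rc3h2 gave -0.26 with another Rc3h2 probe set. Without single arrays, or under the block without one number, the brightest Zfp36l1 probe set ranged over -0.08 to 0.26, the second Rc3h2 probe set over -0.52 to 0.26, another over -0.03 to 0.41, the second Btg1 probe set over -0.21 to 0.12 and a dim Pnrc1 probe set over -0.05 to 0.16. The ratio of Zfp36 to Zfp36l2 ranged over -0.08 to 0.80 and that of Rc3h1 to Rc3h2 over -0.10 to 0.24. Cd3e ranged over -0.04 to 0.36, Cd4 over -0.16 to 0.79 and Cd44 over -0.02 to 0.38.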
